A study of Homo sapiens with 6 samples.

Results

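The genes described here are 10 neighbours in chromosome band 9p24.1, out of 18404 genes measured: CD274 and PDCD1LG2, which encode the PD-1 ligands PD-L1 and PD-L2, and JAK2, INSL6, INSL4, RLN2, RLN1, PLGRKT, RIC1 and ERMP1 around them. RNA came from PC-3, an androgen-independent human prostate carcinoma line, grown in DMEM with 10% FBS. The vehicle group (3 arrays) received ethanol at 0.1% and the menthol group (3 arrays) received menthol in the same ethanol; all 6 samples therefore share the cell line and the solvent. No dose or duration of the menthol treatment is stated in the labels used here. The 2 ligand genes were chosen by their rise with menthol in this same comparison, so their values are given as a description, with no test. The other 8 were chosen by position, and their tests come from a fit over the whole table.

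PD-1 is an inhibitory receptor of activated T cells, and PD-L1 or PD-L2 on another cell engages it and dampens the T-cell response. Many tumour cells transcribe CD274 after interferon-gamma, whose receptor signals through the kinases JAK1 and JAK2, and IRF1 is a factor that acts on the gene in that response. The JAK2 gene lies in the same band as both ligand genes, and this stretch is amplified as a unit in some lymphomas. The remaining members have other roles. INSL6, INSL4, RLN2 and RLN1 encode peptide hormones of the relaxin family, PLGRKT encodes a plasminogen receptor of the cell surface, RIC1 encodes a subunit of an exchange factor for the Golgi GTPase RAB6, and ERMP1 encodes a metallopeptidase of the endoplasmic reticulum.

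Each member had 1 probeset on the Affymetrix whole-transcript array, a group of probes summarised as 1 intensity. In RefSeq order the members ran JAK2, INSL6, INSL4, RLN2, RLN1, PLGRKT, CD274, PDCD1LG2, RIC1 and ERMP1. The annotated stretch from JAK2 to ERMP1 held 30 genes, of which 10 were protein coding, all of them members, 18 were pseudogenes and 2 were long non-coding RNAs. No other measured gene lay between the members (0 genes).

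The bases before the start of CD274 are shown because interferon signalling reaches this gene through its promoter. The run is the 250 bases before the start in RefSeq (GRCh38.p14, chr9:5450292-5450541, plus strand), and capitals mark matches to the interferon response element core GAAANNGAA and the gamma-activated site TTCNNNGAA on either strand.

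CD274: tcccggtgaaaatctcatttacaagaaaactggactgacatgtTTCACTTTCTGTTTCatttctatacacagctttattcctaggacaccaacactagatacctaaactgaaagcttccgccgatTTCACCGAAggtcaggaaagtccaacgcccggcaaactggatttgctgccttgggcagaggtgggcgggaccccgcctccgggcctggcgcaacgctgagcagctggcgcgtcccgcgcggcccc

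The first run of capitals holds 2 overlapping cores on the minus strand, at -207 to -199 and at -201 to -193 from the start site. The second, at -125 to -117, matches the gamma-activated site, whose pattern TTCNNNGAA reads the same on both strands. Of 35116 RefSeq promoter windows of the same length, 6.88% held the response element core, 0.567% held it at least 2 times and 6.57% held the gamma-activated site. A match describes letters, not binding.

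RIC1, the member that moved opposite to the ligands, is shown for contrast (GRCh38.p14, chr9:5628857-5629106, plus strand). Its window held no match to these 2 motifs, to the AP-1 site TGANTCA or to the E-box CACGTG. The CD274 window also held no AP-1 site and no E-box, so the 2 windows do not differ in these.

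RIC1: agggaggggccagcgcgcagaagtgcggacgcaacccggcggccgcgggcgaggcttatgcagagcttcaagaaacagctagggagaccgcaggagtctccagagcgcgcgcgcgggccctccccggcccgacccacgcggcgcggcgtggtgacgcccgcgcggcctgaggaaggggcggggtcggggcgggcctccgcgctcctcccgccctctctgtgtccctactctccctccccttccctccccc

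In base composition the windows differed, with 54.8% G and C and 16 CpG pairs before CD274 and 75.2% and 32 before RIC1, against a median of 58.0% G and C over all windows. RefSeq windows were matched for 9 of the 10 members, 13 windows in all; PDCD1LG2 is not among them, so the motif comparison covers CD274 alone of the 2 ligands. Among the remaining members INSL4 held 1 response element core and INSL6 held 1 AP-1 site, while the 4 windows of JAK2, the 2 of RLN2 and those of RLN1, PLGRKT and ERMP1 matched none of the 4 motifs. The AP-1 site was present in 6.57% of all windows and the E-box in 6.34%.

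Menthol-treated cells carried more signal for both PD-1 ligands. CD274 had log2 intensities of 5.23, 5.01 and 5.24 on vehicle arrays 1, 2 and 3 and of 6.98, 7.08 and 7.24 on menthol arrays 1, 2 and 3. The groups lay apart by 1.75 between the highest vehicle and the lowest menthol array, while the arrays of one group spanned 0.23 with vehicle and 0.26 with menthol. Menthol minus vehicle was 1.94 ± 0.09 in log2 units (moderated SE, 3 arrays in each group), which is 3.85-fold. In a bulk sample, a larger share of cells with the transcript and more transcript per cell cannot be told apart.

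PDCD1LG2 had log2 intensities of 4.33, 4.73 and 4.85 on vehicle arrays 1, 2 and 3 and of 6.66, 6.76 and 6.60 on menthol arrays 1, 2 and 3. Vehicle array 1 was the low one of its group, and the vehicle arrays spanned 0.52 against 0.17 with menthol. The groups again lay 1.75 apart, and the difference was 2.03 ± 0.13, or 4.10-fold. Its vehicle mean, 4.64, was under 4.88, the 95th percentile of 340 olfactory receptor genes (a family silent in most tissues, used here as a reference for dim probesets), and its menthol mean, 6.67, was above it. The fold of PDCD1LG2 is therefore not an exact value. The vehicle mean of CD274, 5.16, was above 4.88 but near it, so the fold of CD274 is not exact either.

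**Figure D1:**
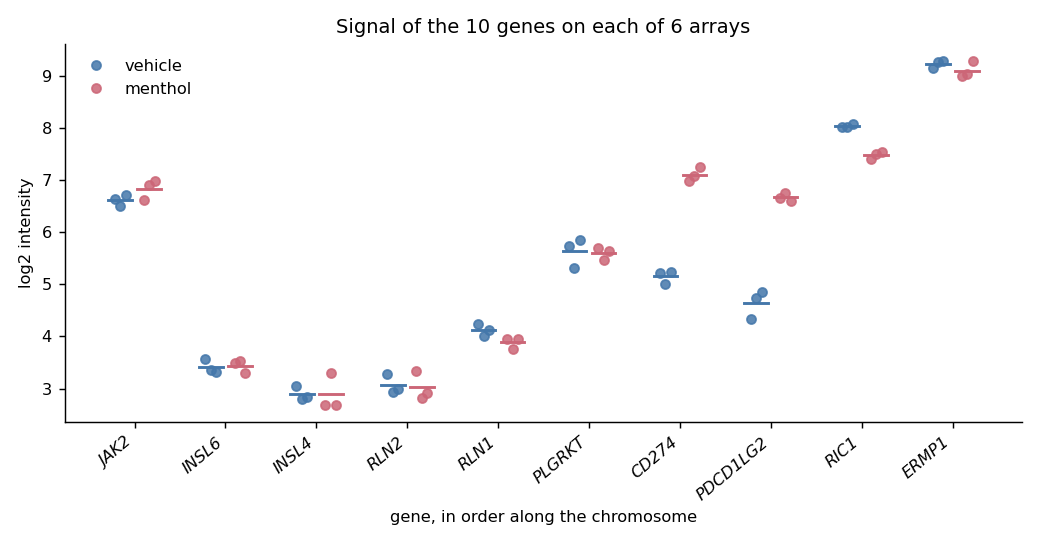
Log2 intensity (vertical axis) of the 10 genes in chromosome order (horizontal axis); each point is 1 of 6 arrays, blue for vehicle and red for menthol, and bars are group means of 3 arrays. The menthol points of CD274 and PDCD1LG2 lie about 2 log2 units above the vehicle points, those of RIC1 lie below, and most other pairs of groups overlap.

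Among the 8 positional neighbours 1 gene fell, 0 rose and 7 did not pass (limma, Benjamini-Hochberg adjusted p under 0.05 over all genes). At an unadjusted p under 0.05, 2 were lower and 0 were higher. Over all genes 29.1% passed, 14.6% higher and 14.5% lower. The 1 of 8 neighbours that fell is close to the share that fell over all genes, while 0 of 8 higher and 1 of 8 either way are below the shares of all genes, a difference that was not tested. The groups did not overlap in 2 neighbours, RIC1 and RLN1, against 45.3% of all genes. The median difference of the neighbours was -0.04 on the log2 scale, beside 0.03 for all genes.

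JAK2, the kinase that pairs with JAK1 on the interferon-gamma receptor, had log2 intensities of 6.64, 6.50 and 6.71 with vehicle and 6.62, 6.90 and 6.99 with menthol. Menthol arrays 2 and 3 were above all vehicle arrays and menthol array 1 was among them. The difference of 0.22 ± 0.11 did not pass (limma adjusted p = 0.166), and its 95% confidence interval ran from 0.98-fold to 1.38-fold. Without menthol replicate 1 it was 0.33 and passed (limma adjusted p = 0.0316), so that array decides the call; across the alternatives the adjusted p ranged from 0.0316 to 0.373.

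RIC1, which lies next to PDCD1LG2 on the ERMP1 side, moved the other way. Its log2 intensities were 8.02, 8.02 and 8.09 with vehicle and 7.41, 7.50 and 7.53 with menthol, so the groups were 0.48 apart. RIC1 fell by 0.56 ± 0.06 on the log2 scale, a menthol level of 0.61 to 0.75 of vehicle (95% confidence interval; limma adjusted p = 0.0007). Among the 4601 genes of similar brightness 20.2% fell. The other subunit of the RIC1 exchange factor, RGP1, and its target RAB6A did not pass (-0.14 ± 0.06 and 0.07 ± 0.07; 0 of 2 called in limma, 0 at an unadjusted p under 0.05). With only the brighter genes in the fit, 1 of the 2 passed as lower.

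ERMP1, the last member and the brightest, had log2 intensities of 9.15, 9.27 and 9.28 with vehicle and 8.995, 9.03 and 9.28 with menthol. Menthol array 3 matched the vehicle arrays while the other 2 menthol arrays lay below them, and the difference of -0.13 ± 0.09 did not pass (limma adjusted p = 0.305). PLGRKT, which borders CD274 on its other side, had 5.74, 5.31 and 5.84 with vehicle and 5.70, 5.46 and 5.65 with menthol. Its groups overlapped, with array 2 the lowest of each, and the difference was -0.03 ± 0.14 (limma adjusted p = 0.901).

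The 4 relaxin family genes were dim. Their group means lay between 2.89 and 4.12 on the log2 scale, under the olfactory receptor percentile of 4.88. RLN1 had 4.24, 4.0045 and 4.12 with vehicle and 3.94, 3.77 and 3.96 with menthol. The groups were 0.05 apart and RLN1 did not pass (-0.23 ± 0.09, limma adjusted p = 0.0794). It passed as lower under cyclic loess normalization (adjusted p = 0.0338) and with array weights (adjusted p = 0.0498); its largest adjusted p among the alternatives was 0.224.

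RLN2, which encodes the circulating relaxin of pregnancy, had 3.27, 2.93 and 3.001 with vehicle and 3.34, 2.81 and 2.92 with menthol, groups that overlapped. RLN1 and RLN2 are closely related and no coordinates of probesets were used, so how far their separate values can be told apart is uncertain. INSL6, expressed chiefly in testis, had 3.57, 3.36 and 3.31 with vehicle and 3.49, 3.53 and 3.30 with menthol, and its annotated span overlaps that of JAK2. INSL4, a placental member of the family, had 3.05, 2.80 and 2.83 with vehicle and 2.69, 3.30 and 2.69 with menthol, where menthol array 2 stood above the other two. The differences of RLN2, INSL6 and INSL4 were -0.05, 0.03 and 0.00, with limma adjusted p of 0.850, 0.856 and 0.9996.

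Over the 7 neighbours that did not pass, the 95% confidence intervals of menthol over vehicle ran from 0.74 (RLN1) to 1.38 (JAK2).

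**Figure D2:**
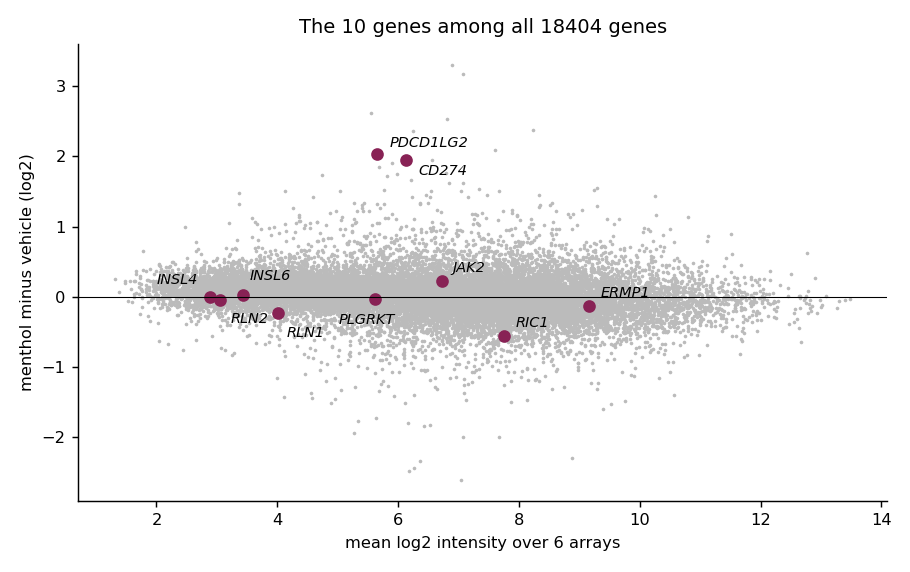
Menthol minus vehicle (log2, vertical axis) against mean log2 intensity over 6 arrays (horizontal axis) for 18404 genes in grey, with the 10 members in purple. CD274 (1.94) and PDCD1LG2 (2.03) lie at the upper edge of the grey cloud, RIC1 (-0.56) lies in its lower part, and the other 7 lie between -0.23 and 0.22.

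When all genes were split by brightness into 4 classes of 4601 genes, every class held a member, and the classes had different medians. The dimmest class, which held 4 members, had a median difference of 0.10, with 10.3% of genes higher and 1.91% lower. The second class, which held CD274, PDCD1LG2 and PLGRKT, had a median of 0.06, with 13.4% higher and 9.0% lower. In the second class the median SD between replicates was 0.11 with either treatment; CD274 had 0.13 with either, while PDCD1LG2 had 0.27 with vehicle and 0.08 with menthol.

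The 10 measured genes on each side of the stretch were examined by position. Of these 20 genes 2 rose and 4 fell, with a median difference of -0.05, beside 14.6% and 14.5% of all genes. The immediate neighbours did not pass: AK3, RCL1 and the microRNA gene MIR101-2 before JAK2, and BRD10, MLANA and RANBP6 after ERMP1. Farther out, the glutamate transporter gene SLC1A1 rose by 0.81 ± 0.07 (limma adjusted p = 0.000206), while GLIS3, a zinc finger transcription factor gene, fell by 0.60 ± 0.07 (limma adjusted p = 0.000617).

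On the ERMP1 side IL33, the gene of an interleukin-1 family cytokine, fell by 1.34 ± 0.12 (limma adjusted p = 0.000241). Its log2 intensities were 6.11, 6.37 and 6.58 with vehicle and 4.96, 5.11 and 4.96 with menthol. The ubiquitin ligase gene UHRF2 fell by 0.64 ± 0.06 (limma adjusted p = 0.000441). Without menthol replicate 1 or vehicle replicate 1, 2 or 3, 1 flanking gene rose in place of 2. The largest change among the 20 flanking genes was the decrease of IL33.

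**Figure D3:**
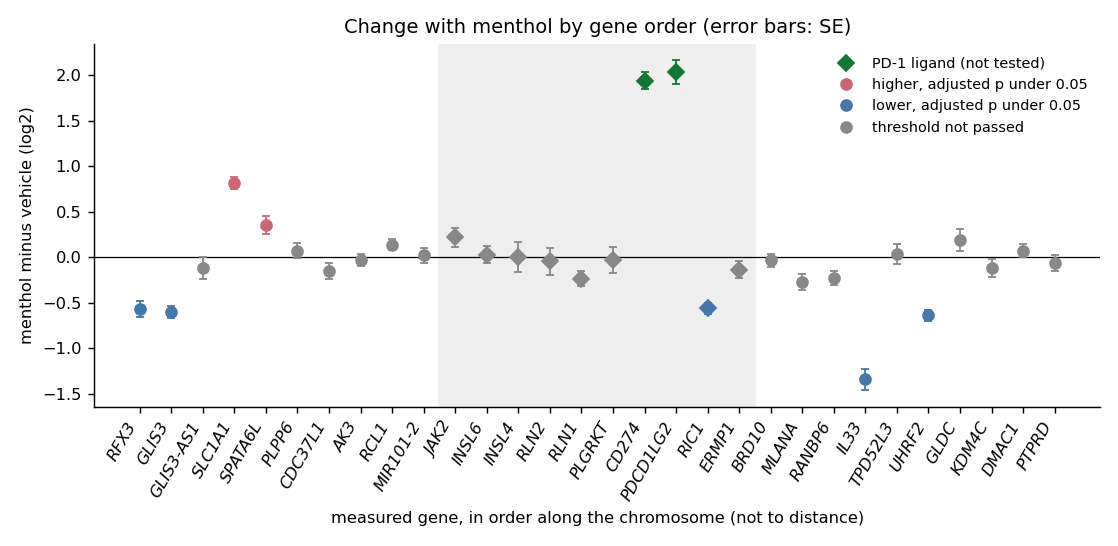
Menthol minus vehicle (log2, vertical axis) with its SE for 30 measured genes in chromosome order, spaced evenly (horizontal axis); diamonds on the shaded band are the 10 members, circles the 10 flanking genes on each side, red higher, blue lower and grey not past the threshold. CD274 and PDCD1LG2 in green, not tested, stand at 1.94 and 2.03 between PLGRKT at -0.03 and RIC1 at -0.56, and IL33 is the lowest at -1.34.

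Genes of the interferon-gamma route to CD274 were examined next. Of 17 measured genes of the receptor, kinases, STATs and their regulators 1 rose and 4 fell, beside 14.6% and 14.5% of all genes. The median difference was 0.05, beside 0.03 for all genes. JAK1, the partner kinase of JAK2, fell by 0.71 ± 0.06 (limma adjusted p = 0.000195) and TYK2, another kinase of the family, by 0.50 ± 0.06 (limma adjusted p = 0.000807). The receptor chain IFNGR2, which binds JAK2, fell by 0.39 ± 0.06 (limma adjusted p = 0.00219), and IRF2, which competes with IRF1 for its sites, fell by 0.54 ± 0.07 (limma adjusted p = 0.00116).

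IRF1, the factor that acts on CD274 after interferon-gamma, had log2 intensities of 6.26, 6.46 and 6.38 with vehicle and 6.22, 6.61 and 6.49 with menthol. Its groups overlapped and the difference was 0.07 ± 0.11 (limma adjusted p = 0.660). The feedback inhibitor genes SOCS1 and SOCS3 were at 0.13 ± 0.08 and 0.05 ± 0.06 and did not pass. The gene of this list that rose is PTPN2, a phosphatase that acts on JAK kinases, at 0.22 ± 0.06 (limma adjusted p = 0.0354). Without vehicle replicate 1 or menthol replicate 1, 2 or 3 no gene of the list rose (0), and without vehicle replicate 3, 2 rose.

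Of 14 receptors that signal through JAK2, 2 rose and 2 fell (median 0.07), close to the 14.6% and 14.5% of all genes. The shared cytokine receptor chain IL6ST rose by 0.49 ± 0.06 (limma adjusted p = 0.00105) and the growth hormone receptor GHR by 0.32 ± 0.07 (limma adjusted p = 0.0110). The leukemia inhibitory factor receptor LIFR fell by 0.79 ± 0.06 (limma adjusted p = 0.000165) and the oncostatin M receptor OSMR fell by 0.45 ± 0.06 (limma adjusted p = 0.00113).

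Among 13 transcription and chromatin factors reported to act on CD274, 2 rose and 7 fell (median -0.30), beside 14.6% and 14.5% of all genes. MYC fell by 0.68 ± 0.06 (limma adjusted p = 0.000229) and WWTR1, a coactivator of the Hippo pathway, fell by 0.80 ± 0.07 (limma adjusted p = 0.000294). The NF-kappaB subunit genes RELA and NFKB1 fell by 0.36 ± 0.06 and 0.32 ± 0.06. JUN, a subunit of AP-1, rose by 0.50 ± 0.06 (limma adjusted p = 0.000755), and the hypoxia factor gene EPAS1 rose by 0.67 ± 0.06 (limma adjusted p = 0.000326). These genes are bright on the array: all 13 lay above the olfactory receptor percentile, and in the 2 brighter classes of genes 20.2% and 26.9% fell.

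For the turnover, glycosylation and trafficking of PD-L1 protein, 2 of 22 genes rose and 4 fell (median -0.09), beside 14.6% and 14.5% of all genes. B3GNT3, a glycosyltransferase acting on PD-L1, rose by 0.40 ± 0.07 (limma adjusted p = 0.00453). The other gene that rose was STT3A, at 0.24 ± 0.06 (limma adjusted p = 0.0223). The 4 genes that fell were the ubiquitin ligase subunit gene BTRC (-0.37 ± 0.08), the kinase gene CDK4 (-0.35 ± 0.06), the ubiquitin ligase scaffold gene CUL3 (-0.34 ± 0.10) and the deubiquitinase gene USP22 (-0.20 ± 0.06). The ubiquitin ligase genes SPOP and STUB1 (-0.14 ± 0.07 and -0.15 ± 0.06) and the kinase gene GSK3B (0.24 ± 0.09) did not pass. CMTM6, which keeps PD-L1 at the cell surface, was at 0.23 ± 0.08 and did not pass (limma adjusted p = 0.0613). Without menthol replicate 2 or 3 or vehicle replicate 1, 2 or 3, 1 gene rose; without vehicle replicate 1, 1 fell, and without menthol replicate 2 or vehicle replicate 3, 2 fell.

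Of 25 other B7 family members and ligands of lymphocyte co-receptors, 5 were higher and 5 lower (median 0.13). Over all genes 14.6% were higher and 14.5% lower. ICOSLG, the ligand of the co-stimulator ICOS, fell by 1.14 ± 0.08 (limma adjusted p = 9.68e-05). The TNF family ligands CD70 and TNFSF9, which co-stimulate T cells, fell by 0.75 ± 0.17 and 0.52 ± 0.08, and the checkpoint gene VSIR rose by 0.53 ± 0.09 (limma adjusted p = 0.00427). Without menthol replicate 2, 3 genes rose, and without vehicle replicate 2, 2 rose.

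The lymphocyte co-receptors were dim, with 1 of 9 above the olfactory receptor percentile. None passed in limma (0 of 9, with 2 higher at an unadjusted p under 0.05), beside 14.6% higher and 14.5% lower over all genes. BTLA and CD96 were at 0.31 ± 0.13 and 0.27 ± 0.11. PDCD1, the gene of PD-1, was not analysed here. Without menthol replicate 2, 2 of them rose, and without vehicle replicate 2, 1 rose.

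Relaxin family peptides encoded elsewhere and the relaxin receptors did not pass in limma (0 of 7 either way, with 1 lower and 0 higher at an unadjusted p under 0.05). RLN3 was at 0.12 ± 0.06 and INSL5 at -0.18 ± 0.07. In the plasminogen system around PLGRKT 1 of 9 genes rose and 2 fell (median -0.02). Over all genes 14.6% rose and 14.5% fell. SERPINE2, an inhibitor of plasminogen activators, fell by 1.13 ± 0.06 (limma adjusted p = 4.1e-05) and the activator PLAT by 0.36 ± 0.06 (limma adjusted p = 0.004). PLAUR, the receptor of urokinase, rose by 0.23 ± 0.06 (limma adjusted p = 0.0257), and without menthol replicate 2 or vehicle replicate 1 or 3 no gene of the list rose (0).

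**Figure D4:**
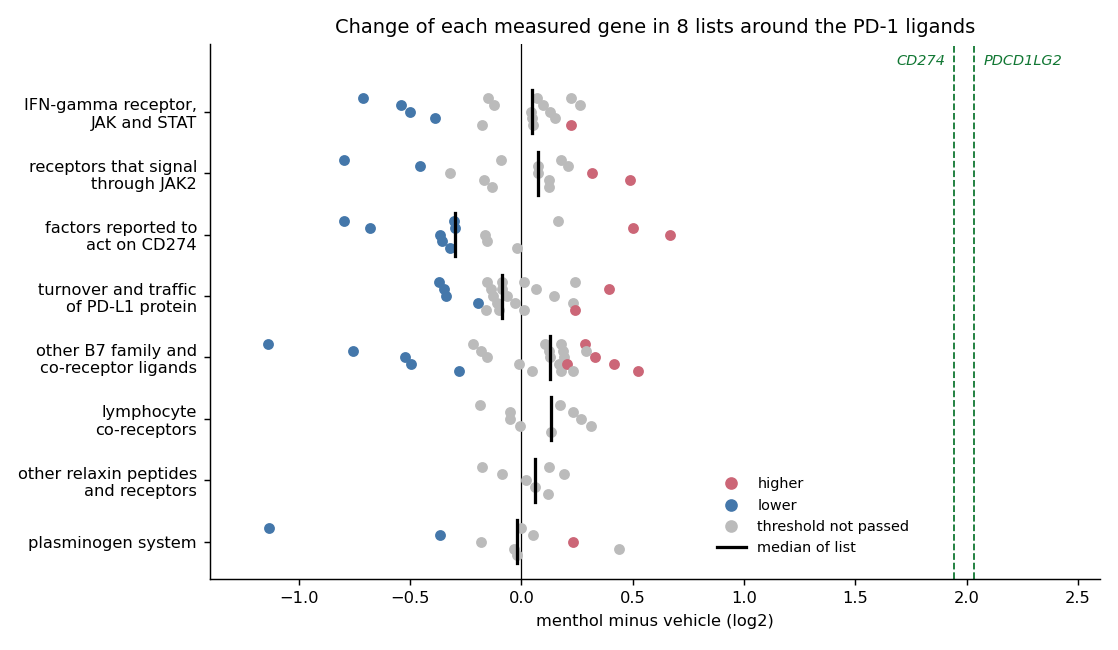
Menthol minus vehicle (log2, horizontal axis) for each measured gene of 8 lists (rows); red points rose, blue points fell, grey points did not pass, and black bars are list medians. The dashed lines mark CD274 (1.94) and PDCD1LG2 (2.03), beyond every point of these lists.

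The genes whose pattern over the 6 arrays was closest to CD274 were found by the root mean square difference between deviations from the vehicle mean, a description with no test. They were DAW1, MME, MACC1, MAL and NLRP10, at 0.11, 0.147, 0.153, 0.156 and 0.181 log2 units. For PDCD1LG2 they were MACC1, MME, CD274, NLRP10 and MAL, at 0.14, 0.198, 0.228, 0.258 and 0.267. This distance depends mainly on the size of the rise, by which both ligands were chosen, so their closeness to each other is no finding.

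Array medians lay between 47.4 and 49.1 intensity units, and the correlation between arrays was 0.987 to 0.997. The labelled cell type was checked on marker genes: all 5 epithelial markers were bright and all 5 rose, KRT19 by 0.97 ± 0.07, KRT18 by 0.87 ± 0.06, CDH1 by 0.78 ± 0.07 and EPCAM by 0.69 ± 0.08. The androgen-dependent luminal markers KLK2 and KLK3 did not pass (0 of 2 in limma, 0 at an unadjusted p under 0.05). Of 11 leukocyte markers, cells in which PD-1 ligands are also found, 1 rose and 0 fell, beside 14.6% and 14.5% of all genes. The leukocyte-wide marker PTPRC was at 2.5997 with vehicle and 2.6933 with menthol, under the olfactory receptor percentile. Of the 11 leukocyte markers 4 lay above that percentile: CD68, CD8A, CD14 and CSF1R. The log2 of the summed leukocyte signal was 9.41 to 9.49 with vehicle and 9.63 to 9.70 with menthol, most of it from the lysosomal gene CD68, which rose by 0.29 ± 0.07.

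The summed signal of 6 fibroblast markers was 8.62 to 8.70 with vehicle and 8.42 to 8.53 with menthol on the same scale, with 2 higher and 1 lower, COL3A1 at -0.55 ± 0.08, DCN at 0.36 ± 0.09 and COL1A2 at 0.21 ± 0.06. That of 5 endothelial markers was 7.25 to 7.38 and 7.58 to 7.65, with PECAM1 at 0.60 ± 0.07 and CLDN5 at 0.33 ± 0.08 higher and 0 lower. Over all genes 14.6% were higher and 14.5% lower. The part of the marker genes in the rise of the ligands was not tested. Without single arrays 0 or 1 fibroblast markers rose in place of 2, with 0 without menthol replicate 1 or 3 or vehicle replicate 2 or 3. Without menthol replicate 2 or vehicle replicate 3, 1 endothelial marker rose, and without vehicle replicate 1 no leukocyte marker (0) and without vehicle replicate 3, 2 rose.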

How the data were processed

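Biotin-labelled RNA (300 ng per sample, per the labels) from 6 PC-3 samples was read on Affymetrix whole-transcript arrays. The authors deposited 1 table of intensity values for 32321 probesets; the submitters' processing notes name RMA. The values ran from 1.57 to 14835, a linear scale, so log2 was taken. Software and annotation build are not given in the sources at hand.

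Probesets with 1 gene symbol in the platform annotation (19158) were kept, and the one with the highest mean per gene, which left 18404 genes. Gene order and promoter sequences came from RefSeq (GRCh38.p14); no coordinates of probesets were used. Motifs were searched in the 250 bases before each start, on both strands.

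Menthol was set against vehicle by lmFit and eBayes of limma 3.58.1 (R 4.3.3; two-sided, Benjamini-Hochberg over all genes, threshold 0.05). An exact permutation of 3 against 3 arrays cannot go below 0.10. Whether replicates came from separate cultures is not in the labels; p-values reflect only how far these 6 arrays vary, a spread that could be technical. The number of arrays limits the precision. The fit was tested on simulated data. Same-numbered replicates were checked for pairing: their deviations from the group means correlated at 0.006, -0.007 and 0.09. Replicates of unlike number correlated at -0.07 to 0.07. No pairing by number was seen, but with 3 arrays in each group this check cannot exclude one.

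The members and the 14 gene lists were chosen with earlier results of these data known. The text names all members and, per list, at most 4 called genes, taken by size of change, or at most 2 taken by p where no gene was called. The 5 genes nearest in pattern to each ligand are named too. IRF1 and PDCD1 are named whatever their values. The genes SOCS1, SOCS3, RELA, NFKB1, PTPN2, CMTM6, USP22, STT3A, SPOP, STUB1 and GSK3B were named after their values were seen. So were PTPRC, AK3, RCL1, MIR101-2, BRD10, MLANA and RANBP6. Alternatives were other normalizations, filters on dim genes, uses of probesets, an added pseudocount, array weights, a trended robust prior (with statmod 1.5.0), a replicate block, a threshold of 0.01 and the omission of each array. Summaries were made in Python 3.11.15 with pandas 2.3.3, numpy 2.4.6 and scipy 1.17.1, and figures in matplotlib 3.10.9.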

Additional observations from a re-analysis of the deposited data

How the results depend on the processing

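The rise of both ligands kept its direction under every alternative run. With 16 added to each intensity the log2 difference was 1.57 for CD274 and 1.52 for PDCD1LG2; with each array left out in turn it was 1.87 to 2.002 and 1.88 to 2.14. RIC1 stayed lower past the threshold throughout, at -0.59 to -0.52. Of the 8 neighbours, 2 passed as lower under cyclic loess normalization and with array weights, in place of 1, the other being RLN1. With single arrays left out 0 to 1 neighbours passed as higher. Over all genes 1382 rose and 1459 fell at a threshold of 0.01, in place of 2683 and 2670, and 1950 to 2402 rose and 1851 to 2472 fell with single arrays left out. The replicate block, which treats same-numbered arrays as pairs though the labels state no pairing, gave 2483 and 2385. Under it RIC1 stayed at -0.56 (limma adjusted p = 0.00405). Under the block 0 interferon-gamma route genes rose in place of 1, 3 B7 family genes in place of 5 and 2 plasminogen genes in place of 1. List counts moved with the settings other than omitted arrays: 0 to 1 interferon-gamma route genes rose, 1 to 4 PD-L1 protein genes rose and 1 to 6 fell, 2 to 6 B7 family genes rose and 3 to 6 fell, 2 to 4 receptors fell and 1 to 3 rose, 0 to 2 plasminogen genes rose, 0 to 1 relaxin family genes fell, 0 to 1 genes of the RIC1 partner list fell, 0 to 2 fibroblast markers rose and 1 to 2 fell, 1 to 2 endothelial and 0 to 2 leukocyte markers rose, and 1 to 2 flanking genes rose; the cause was not tested. All 5 epithelial markers rose under every setting that kept them, and 3 of 3 when only genes with 1 probeset were used. On the plus strand alone CD274 had 0 response element cores. The file gives no detection calls, so which dim members are above background is not known.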
